A study of Mus musculus with 302 samples.

Results

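The 150 livers described here are the ends of a ranking of 302 F2 mice by 3 drug-metabolising cytochrome P450 genes, Cyp2b10, Cyp2c29 and Cyp2c50. The 75 mice with the highest mean standardised value of these genes are called the high livers, the 75 with the lowest the low livers, and the 152 others the middle livers. Each gene was first centred within 4 blocks of mice, made from Eif2s3y, a Y-linked gene, below or above -0.8 and from the mouse number in the title up to 212 or above it. All mice were F2 offspring of a cross between C57BL/6J and C3H/HeJ, which are inbred strains, made in both directions, and both sexes were used. Every one of them had chow with 4% fat to 8 weeks of age, then a Western diet with 42% fat and 0.15% cholesterol for 12 weeks, and a 12 h fast before the liver was taken at 20 weeks. The labels name 1 group, with no sex, genotype, drug or direction of the cross for a single mouse. High and low are therefore not treatments but ends of 1 population. One 2-colour array per mouse set its liver RNA, in Cy3, against a pool of all the mice, in Cy5.

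Cyp2b and Cyp2c enzymes sit in the membrane of the endoplasmic reticulum of hepatocytes and oxidise drugs, steroids and fatty acids. Their genes are the textbook targets of the nuclear receptors CAR (Nr1i3) and PXR (Nr1i2), which bind as partners of the retinoid X receptors to paired copies of the hexamer AGGTCA and respond to foreign compounds, bile acids and hormones. The same receptors are known to raise Cyp3a enzymes, transferases that conjugate the oxidised products, and transporters that carry them into bile. Most Cyp2c genes lie in 1 cluster on chromosome 19, and the Cyp2b genes on chromosome 7.

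The 250 bases before the start site of genes the results turn on show how alike and how different these neighbouring copies are. The windows are from RefSeq on GRCm38.p6, written 5′ to 3′ in the direction of the gene, with AGGTCA on the strand shown in capitals.
Cyp2b10 (chr7:25897408-25897657, plus strand): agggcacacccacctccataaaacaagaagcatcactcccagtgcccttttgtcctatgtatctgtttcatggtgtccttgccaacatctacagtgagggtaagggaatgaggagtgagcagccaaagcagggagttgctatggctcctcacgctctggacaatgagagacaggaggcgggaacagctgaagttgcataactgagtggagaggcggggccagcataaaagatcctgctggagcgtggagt
Cyp2b23 (chr7:26686431-26686680, minus strand): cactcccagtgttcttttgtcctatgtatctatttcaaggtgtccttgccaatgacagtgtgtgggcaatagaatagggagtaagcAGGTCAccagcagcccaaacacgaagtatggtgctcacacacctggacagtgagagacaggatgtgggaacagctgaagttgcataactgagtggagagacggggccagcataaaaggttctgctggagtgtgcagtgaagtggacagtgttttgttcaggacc
Cyp2c29 (chr19:39286835-39287084, plus strand): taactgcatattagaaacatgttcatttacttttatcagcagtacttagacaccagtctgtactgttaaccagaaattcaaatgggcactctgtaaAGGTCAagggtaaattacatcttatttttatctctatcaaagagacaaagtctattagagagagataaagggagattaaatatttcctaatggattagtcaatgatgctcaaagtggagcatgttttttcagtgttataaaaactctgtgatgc
Cyp2c50 (chr19:40089429-40089678, plus strand): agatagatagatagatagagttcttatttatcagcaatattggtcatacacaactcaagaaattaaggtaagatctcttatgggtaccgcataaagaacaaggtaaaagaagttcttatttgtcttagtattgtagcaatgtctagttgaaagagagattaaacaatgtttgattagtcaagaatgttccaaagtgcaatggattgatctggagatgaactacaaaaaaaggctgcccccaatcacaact
Cyp2c37 (chr19:39992174-39992423, plus strand): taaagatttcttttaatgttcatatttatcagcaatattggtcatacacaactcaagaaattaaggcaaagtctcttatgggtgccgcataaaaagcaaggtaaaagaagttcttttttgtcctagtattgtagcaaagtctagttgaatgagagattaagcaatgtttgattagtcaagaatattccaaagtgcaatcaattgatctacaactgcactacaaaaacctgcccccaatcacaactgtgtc
The windows of Cyp2c50 and Cyp2c37 had the same base at 80.2% of the compared positions, and those of the female-biased pair Cyp2b9 and Cyp2b13 at 99.2%. Cyp2c29 holds AGGTCA at -154 from its start site and Cyp2b23 at -164, whereas these letters were not in the windows of Cyp2b10, Cyp2c50 and Cyp2c37 on either strand. Over all named genes, 1006 of 8587 windows of this length held AGGTCA on either strand, or 11.7%. The share was 17.3% in the 185 windows of genes called higher by at least 25% in the high livers and 10.6% in the 293 of genes called lower by as much, with the low livers at least 25% above the high. TTATGTAA, a letter pattern of the clock-driven PAR bZIP factors, was in 59 of all 8587 windows (0.687%). It was in 4 of 185 windows of the higher genes (2.16%) and 1 of 293 of the lower genes (0.341%). TTACGTAA, another such pattern, was in 12, 1 and 0 of them (0.14%, 0.541% and 0%). No window held AGGTCA repeated in 1 direction with 3 or 4 bases between the copies, or the palindrome of the liver factor HNF1 that was searched for. As these longer patterns were in none of the 8587 windows, their absence says nothing about the P450 genes in particular. Sites with other letters or outside the 250 bases were not searched for. A match of letters is a description of the window and does not show a bound factor.

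Mice were chosen by the 3 genes, so their levels are a description and were not tested. Values are log10 ratios of a mouse to the pool, which is how the deposited numbers were read although neither base nor direction is stated, so 0 is the level of the pool. Cyp2b10 ran from -0.576 to 0.137 with a median of -0.234 in the low livers, and from -0.364 to 0.929 with a median of 0.22 in the high livers. With blocks removed the sides lay 3.05-fold apart in Cyp2b10, 2.31-fold in Cyp2c29 and 2.66-fold in Cyp2c50. Cyp2c29 had medians of -0.157 and 0.203 in the low and high livers, and Cyp2c50 of -0.252 and 0.187. The ranges of the sides overlapped in each of the 3 genes, since a mouse could enter on the strength of the other two. The last mouse inside the low livers had a score of -0.554 and the first outside it -0.547, against 0.452 inside and 0.451 outside for the high livers, so the limits cut through a continuous range. Over 302 mice and with blocks removed, Cyp2b10 correlated with Cyp2c29 at r = 0.621 and with Cyp2c50 at r = 0.379, and Cyp2c29 with Cyp2c50 at r = 0.644. These points share their array and the pool. In mice ranked by Cyp2b10 alone, Cyp2c29 was 1.76-fold and Cyp2c50 1.54-fold higher in the 75 highest than in the 75 lowest. Ranked by the Cyp2c pair, the mice differed 2.28-fold in Cyp2b10. These folds are descriptions too. The Cyp2b and Cyp2c genes lie on different chromosomes, but the rankings share the array and the pool with the measured gene. The mouse number was not a covariate in them.

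The sides also differed in where the mice stood in the numbering. The median mouse number was 140 in the low and 207 in the high livers, and within the 4 blocks the score correlated with the number at r between 0.203 and 0.613, over 65 to 82 mice each. What the number stands for is not given in the labels. A fit with it as a covariate was therefore added after the data were seen, and its values stand beside the results below. Array medians lay between -0.0117 and 0.0174, and the median SD over an array's probes was 0.0988 in the low and 0.0975 in the high livers. Of the 31 arrays with the widest spread 13 were low and 3 high, and without them 3158 genes were called higher and 2538 lower. A ratio to a pool of liver gives no level against other tissues, so the labelled tissue could not be checked by its marker genes.

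**Figure D1:**
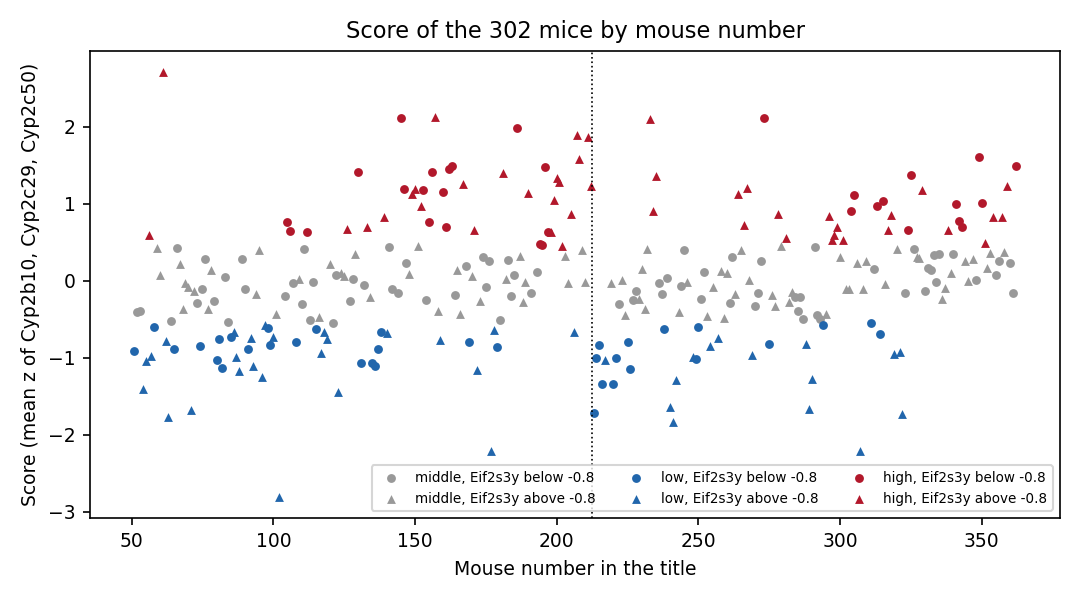
Score of each of the 302 mice (mean z of Cyp2b10, Cyp2c29 and Cyp2c50 with blocks removed) against the mouse number, with the 75 high livers in red, the 75 low in blue and the 152 middle in grey; circles and triangles mark Eif2s3y below and above -0.8, and the dotted line parts numbers up to 212 from those above. Low livers crowd among the small numbers, with a median of 140 against 207 in the high livers.

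Away from the 3 genes, the high livers had more RNA of P450 enzymes, conjugating enzymes and transporters, and less of matrix, macrophage, cell division and fat synthesis genes. Of 10812 other named genes, 2810 were higher and 2397 lower in the high livers at an adjusted p under 0.05, or 26% and 22.2%. So broad a background means that a list with about 26% higher and 22.2% lower members is like any other. With the higher side also at least 25% above the lower, 228 genes (2.11%) were higher and 387 (3.58%) lower. The median difference over all named genes was 0.0018 in log10. As the mice were picked by genes on the same arrays, whatever an array shares among its genes enters these differences. With the mouse number as a covariate 1839 genes (17%) were higher and 1493 (13.8%) lower, and 186 of the 228 and 349 of the 387 genes past 25% were still called the same way. Within the number ranges 2754 genes were higher and 2371 lower in mice up to 212, and 553 and 322 in those above. Within the Eif2s3y classes they were 1536 and 1323 below -0.8, and 2264 and 1953 above it. The first principal component of all arrays held 11.05% of the variance and correlated with the score at r = 0.51 over the 302 mice, and with it as a covariate 1003 genes were higher and 929 lower. Of 161 genes named by rule 53 lost the call with that covariate and 23 changed sign. In the 152 middle mice, which the contrast did not use, 13 genes (0.12%) rose and 5 (0.0462%) fell with the score at an adjusted p under 0.05. There 223 of the 228 and 369 of the 387 genes had the same sign as between the sides, beside 72.42% of all named genes. Those slopes are on a score of the same 3 genes, and the 228 and 387 genes were picked for large differences. The shared sign is therefore not a separate test of the contrast.

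The other Cyp2b and Cyp2c genes went up with the 3 that chose the mice. Of 17 listed, 12 were measured, 11 were higher in the high livers and none lower, with a median difference of 0.19. All 11 were still called with the mouse number as a covariate. Cyp2c54, an oxidase of the same cluster as Cyp2c29 and Cyp2c50, was highest of all genes by difference, at 3.32-fold (0.521 ± 0.0284 in log10, adjusted p = 4.82e-36). It ran from -0.802 to 0.261 with a median of -0.319 in the low livers and from -0.143 to 0.532 with a median of 0.252 in the high livers, and all 75 high livers lay above the median of the low ones. Cyp2b23, a close copy of Cyp2b10, ran from -0.6 to 0.163 with a median of -0.185 in the low livers and from -0.412 to 0.928 with a median of 0.211 in the high livers. It was 2.78-fold higher (0.445 ± 0.0291, adjusted p = 1.06e-28), with 74 of 75 high livers above the low median. Cyp2c37, which oxidises arachidonic acid, ran from -1.01 to 0.196 with a median of -0.21 in the low livers. In the high livers it ran from -0.339 to 0.526 with a median of 0.194. Its difference was 2.62-fold (adjusted p = 8.48e-33), and Cyp2c38 followed at 2.01-fold (adjusted p = 7.14e-29), both with all 75 high livers above the low median. The full ranges of the sides overlapped in every one of these 4 genes.

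Behind these 4 came genes with smaller and less even differences. Cyp2c23, a renal and hepatic epoxygenase, was 1.58-fold higher (0.2 ± 0.0495, adjusted p = 0.00041) and Cyp2c55 1.58-fold (0.199 ± 0.0468, adjusted p = 0.00019), each with ranges that overlapped widely. Cyp2b9 and Cyp2b13, which are known for their higher level in female liver, were 1.51-fold and 1.48-fold higher (adjusted p = 1.55e-07 and 1.9e-07). Cyp2c40, another female-biased enzyme, was 1.41-fold higher (adjusted p = 4.53e-10). Cyp2c70, which makes muricholic acids in the mouse, was 0.0983 ± 0.0193 higher in log10 (adjusted p = 8.93e-06), and Cyp2b19, best known from skin, 1.06-fold (adjusted p = 0.00092). Cyp2c39 had no call at 0.0471 ± 0.0457 in log10 (adjusted p = 0.417).

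How much of this is separate evidence is limited by how alike the copies are. Over 302 mice with blocks removed, Cyp2b23 correlated with Cyp2b10 at r = 0.961, Cyp2c54 and Cyp2c37 with Cyp2c50 at r = 0.938 and 0.934, and Cyp2c38 with Cyp2c29 at r = 0.897. Cyp2b9 correlated with Cyp2b13 at r = 0.937. Each of the selection genes was read by 1 probe, probe sequences were not used here, and binding of 1 probe to RNA of a near-identical gene cannot be told apart from expression of its own gene. For the same reason the rise of Cyp2c54, Cyp2b23, Cyp2c37 and Cyp2c38 with the score in the middle mice (adjusted p from 8.86e-05 to 0.0429) is not independent of the score. Ranking by genes of the other chromosome avoids that likeness. The array and the pool were still shared, and the mouse number was not a covariate. In mice ranked by Cyp2b10 alone, Cyp2c54 was 1.76-fold higher (adjusted p = 1.1e-07), Cyp2c37 1.52-fold (adjusted p = 3.25e-06), Cyp2c38 1.68-fold (adjusted p = 3.77e-15) and Cyp2c55 2.01-fold (adjusted p = 7.13e-08). Cyp2c39, with no call between the sides, was 1.34-fold higher in that ranking (adjusted p = 0.0158), whereas Cyp2c23, Cyp2c40 and Cyp2c70 had no call (adjusted p = 0.98, 0.117 and 0.563). In mice ranked by Cyp2c29 and Cyp2c50, Cyp2b23 was 2.14-fold higher (adjusted p = 1.72e-15), Cyp2b9 1.35-fold and Cyp2b13 1.33-fold (adjusted p = 0.00012 for both).

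**Figure D2:**
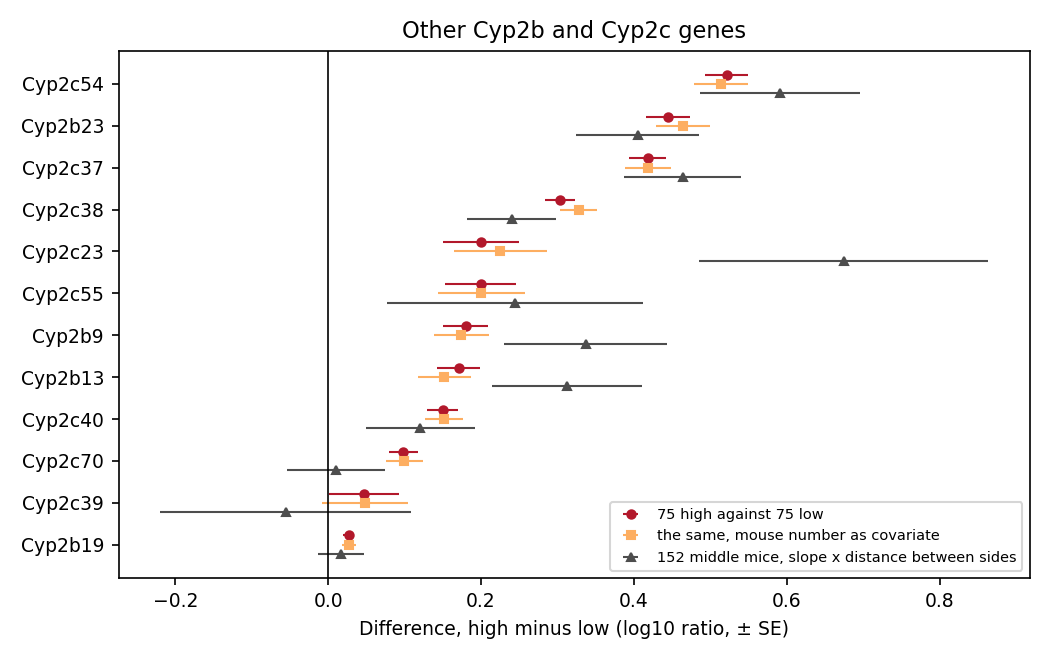
Difference between high and low livers in log10 ratio, ± SE, for the 12 measured Cyp2b and Cyp2c genes that did not choose the mice (red circles), the same with the mouse number as a covariate (orange squares), and the slope on the score in the 152 middle mice times the distance of 2.12 score units between the sides (grey triangles). Only Cyp2c54, Cyp2b23, Cyp2c37 and Cyp2c38 had an adjusted p under 0.05 in all 3 fits, and Cyp2c39 had it in none.

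Other genes known to be raised through CAR and PXR moved the same way. Of 43 listed outside the Cyp2b and Cyp2c genes 27 were measured, 18 were higher and none lower, with a median difference of 0.0886 in log10, and 14 were higher with the mouse number as a covariate. The mean over the list had a median of -0.0408 in the low livers and 0.065 in the high livers, and 72 of 75 high livers lay above the low median. Cyp3a11, the main PXR-driven drug oxidase of mouse liver, ran from -0.963 to 0.0982 with a median of -0.167 in the low livers and from -0.619 to 0.363 with a median of 0.0358 in the high livers. It was 1.75-fold higher (0.244 ± 0.0316, adjusted p = 1.12e-10), with 69 of 75 high livers above the low median. Its relatives Cyp3a16, Cyp3a13, Cyp3a41a and Cyp3a25 were 1.67-, 1.59-, 1.49- and 1.47-fold higher. Cyp1a2, the caffeine-oxidising enzyme that CAR and the dioxin receptor AHR both raise, ran from -0.749 to 0.68 with a median of -0.22 in the low livers and from -0.408 to 0.83 with a median of -0.00871 in the high livers. It was 1.88-fold higher (adjusted p = 1.29e-09), and Cyp1a1, the most AHR-dependent P450, missed the threshold at 0.103 ± 0.0449 (adjusted p = 0.0504). With the mouse number as a covariate Cyp1a1 was called higher, at 0.142 (adjusted p = 0.0392). Of the 8 AHR targets 2 were higher and none lower, and the higher share is near the 26% of all named genes. With that covariate 3 were higher, beside 17% of all named genes. The sulfotransferase Sult1d1 was 1.83-fold higher (0.263 ± 0.0227, adjusted p = 4.1e-19), and the glutathione transferases Gsta2 and Gstt3 were 1.41- and 1.32-fold higher. Several classical CAR targets did not pass the test. Gstm1, Gstm2, Ephx1 and Aldh1a7 stood at 0.00391, -0.0498, 0.023 and 0.0247 in log10. Thrsp, which is also a lipogenic gene, Alas1, Abcc3 and Slco1a4 lost their calls with the mouse number as a covariate.

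Whole detoxification families leaned upward too. Their lists share members with the CAR and PXR list, such as Cyp3a41a and Sult1d1, so the counts are not separate. Among 47 P450 genes outside Cyp2b and Cyp2c 29 were higher, none was lower, and the median difference was 0.0402. Cyp39a1, a hydroxylase of oxysterols, led them at 1.94-fold (adjusted p = 1.47e-07), with wide and overlapping ranges of -1.01 to 0.472 in the low and -0.81 to 0.637 in the high livers. Cyp2e1, the ethanol-oxidising P450, was 1.39-fold higher and Cyp2a12 1.38-fold (adjusted p = 7.39e-13 and 3.73e-13). Of 8 carboxylesterases, which split esters of drugs and lipids, 6 were higher and none lower. Ces1g led them at 1.62-fold (adjusted p = 3.25e-15) and also rose with the score in the middle mice (adjusted p = 0.0291). Of 12 sulfotransferases 6 were higher, of 5 glucuronosyltransferases 3, and of 3 flavin monooxygenases 2, with none lower. Glutathione transferases had 8 of 16 higher and 1 lower, and aldehyde dehydrogenases 7 of 13 higher and 1 lower. The lower ones were Mgst2 at -0.0846 and Aldh18a1, an enzyme of proline synthesis, at -0.0991 in log10.

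Carriers also leaned upward, with some members lower. Among 36 ABC transporter genes 16 were higher and 4 lower. Abca8a led at 1.46-fold (adjusted p = 2.49e-14), and Abcg5 and Abcg8, which pair to export sterols into bile, were 1.45- and 1.36-fold higher. Abcg1, a cholesterol exporter of macrophages, was lower at -0.0984 in log10, as were Abcb1b, Abca5 and Abcb9, the last not with the mouse number as a covariate (adjusted p = 0.0996). Among 32 organic anion and cation transporters 18 were higher and 1 lower. Slco1b2, a hepatocyte uptake carrier, was 1.39-fold higher (adjusted p = 2.04e-09), and the lower one was Slco3a1 at -0.0987.

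Of the regulators, CAR itself was among those that rose. Nr1i3 ran from -0.493 to 0.234 with a median of -0.0499 in the low livers and from -0.228 to 0.263 with a median of 0.0606 in the high livers, and 63 of 75 high livers lay above the low median. Its difference was 1.33-fold (0.124 ± 0.0173, adjusted p = 1.5e-09; 0.126 with the mouse number as a covariate). PXR (Nr1i2) has no named probe among those used. Of 38 nuclear receptors and liver regulators listed 31 were measured, 13 were higher and 5 lower, and the median difference of 0.00304 was near that of all genes. Dnajc7, a co-chaperone known to hold CAR in the cytoplasm, was 1.45-fold higher (adjusted p = 8.77e-05). Hnf4a, a master factor of hepatocytes, and the coactivator Ncoa3 were 1.08- and 1.07-fold higher, small steps with small errors (adjusted p = 3.1e-09 and 3.52e-09). The bile acid receptor Nr1h4 was 1.12-fold higher, the pioneer factor Foxa2 1.18-fold and the estrogen receptor Esr1 1.09-fold. Esr1 was called lower, at -0.0265 (adjusted p = 0.0498), with the first principal component as a covariate, and stood at -0.00779 with no call in mice ranked by Cyp2b10 alone. With the mouse number as a covariate 7 of the 31 were higher and 1 lower. The glucocorticoid receptor Nr3c1, Ppara, Cebpb, Foxo1, Ppargc1a and Hsp90aa1 were called higher, by 1.09- to 1.28-fold, and lost the call with the mouse number as a covariate. Rxrg was lower at -0.113 (adjusted p = 9.19e-09) and kept the call with that covariate (adjusted p = 0.0281). Rxrb, Nr1h3, Stat5a and Nfe2l2, the oxidative stress factor NRF2, were lower by 1.07- to 1.2-fold and did not keep it. Rxra, the main partner of CAR in liver, had no call at 0.0107.

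Genes that supply P450 enzymes with haem moved less evenly. Of 10 measured genes of haem synthesis and electron supply 5 were higher and 2 lower, and 3 and 1 with the mouse number as a covariate. Alas1, the rate-limiting enzyme of haem synthesis, was 1.35-fold higher (adjusted p = 0.000102), but 0.0616 in log10 with an adjusted p of 0.178 with the mouse number as a covariate. Pgrmc1, a haem-binding partner of P450 enzymes, was 1.18-fold higher (adjusted p = 8.03e-10). Hmox1, which breaks haem down, was 1.78-fold higher (adjusted p = 0.000372) with a range of -1.05 to 0.539 in the low livers, and its adjusted p was 0.0714 with that covariate. Of 11 NRF2 targets 2 were higher and 1 lower (none and 1 with that covariate), and the model target Nqo1 stood at 0.00473.

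Bile acid genes rose beside the P450 genes. Of 17 measured 12 were higher and none lower, with a median difference of 0.0553, and 9 were higher with the mouse number as a covariate. Akr1d1, the reductase that shapes the steroid ring of bile acids, ran from -0.598 to 0.273 with a median of -0.149 in the low livers and from -0.272 to 0.32 with a median of 0.119 in the high livers. It was 1.76-fold higher (0.246 ± 0.0248, adjusted p = 2.89e-15), with 72 of 75 high livers above the low median. Slc27a5 and Baat, which join bile acids to coenzyme A and to taurine, were 1.27- and 1.2-fold higher (adjusted p = 1.42e-11 and 2.14e-10). The bile salt pump Abcb11 was 1.11-fold higher, while Cyp8b1, which sets the share of cholic acid, stood at -0.00642 with no call.

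Hepatocyte genes of both zones of the liver lobule leaned upward. Of 18 pericentral genes, from the zone around the central vein where CAR targets are known to be strongest, 9 were higher and 3 lower. Of 13 periportal genes 8 were higher and 2 lower. Cyp1a2, Cyp2e1, Rgn (1.28-fold) and Aldh1a1 (1.22-fold) were the leading pericentral genes, while Glul and Axin2, the genes nearest the vein, stood at -0.0196 and -0.0204 with no call. Lgr5, Sp5 and the amino acid carrier Slc1a4, pericentral genes tied to Wnt signals or amino acid uptake, were lower at -0.135, -0.157 and -0.0817, but Lgr5 lost the call with the mouse number as a covariate (adjusted p = 0.157). Among periportal genes Igfbp2 was 1.7-fold higher, the antibody receptor Pigr 1.4-fold and the urea cycle enzyme Asl 1.33-fold (adjusted p = 1.58e-08, 1.54e-14 and 7.63e-10). Genes known to be higher in female liver had 9 of 18 higher and 1 lower. Cyp2c40, Cyp39a1 and Cyp3a41a, already counted with the P450 genes above, are among the 9. Those known to be higher in male liver had 6 of 16 higher and 2 lower, among them Slco1a1 at 1.45-fold and Hsd3b5 at 1.38-fold higher, both compared within blocks that separate the Eif2s3y classes. In mice ranked by Cyp2b10 alone Slco1a1 and Hsd3b5 stood at -0.0115 and -0.0729 with no call.

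The genes that fell furthest came from several cell types and roles. Ly6d, a surface protein of B cell progenitors and epithelia, ran from -1.01 to 0.537 with a median of 0.0608 in the low livers and from -1.11 to 0.097 with a median of -0.425 in the high livers. It was 2.84-fold lower in the high livers (-0.453 ± 0.0479, adjusted p = 2.26e-14), and 1 of 75 high livers lay above the low median. Cgref1, a calcium-binding protein, ran from -0.485 to 0.791 with a median of 0.0498 in the low livers and from -0.732 to 0.184 with a median of -0.299 in the high livers, with none of the high livers above the low median. It was 2.27-fold lower (-0.355 ± 0.0298, adjusted p = 6.3e-20) and fell with the score in the middle mice too (-0.561, adjusted p = 0.0179). Sprr1a, a protein of stressed epithelia, was 2.82-fold lower (adjusted p = 3.76e-09), and Slpi, a secreted inhibitor of leukocyte proteases, 2.12-fold (adjusted p = 9.72e-11). Slpi ran from -0.668 to 0.586 with a median of -0.0427 in the low livers and from -0.809 to 0.214 with a median of -0.301 in the high livers. The calcium-binding proteins Anxa2 and S100a6 were 1.86- and 1.81-fold lower, and the chemokine Ccl4 1.93-fold. Knstrn, a protein of the spindle, was 1.83-fold lower, Clstn3 1.84-fold, Sdcbp2 1.95-fold and the ubiquitin-like Ubd 2.02-fold, though Ubd stood at 0.104 with no call with the first principal component as a covariate. Each of these had the same sign in all 4 blocks, by the rule for naming them, and their ranges on the sides overlapped.

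**Figure D3:**
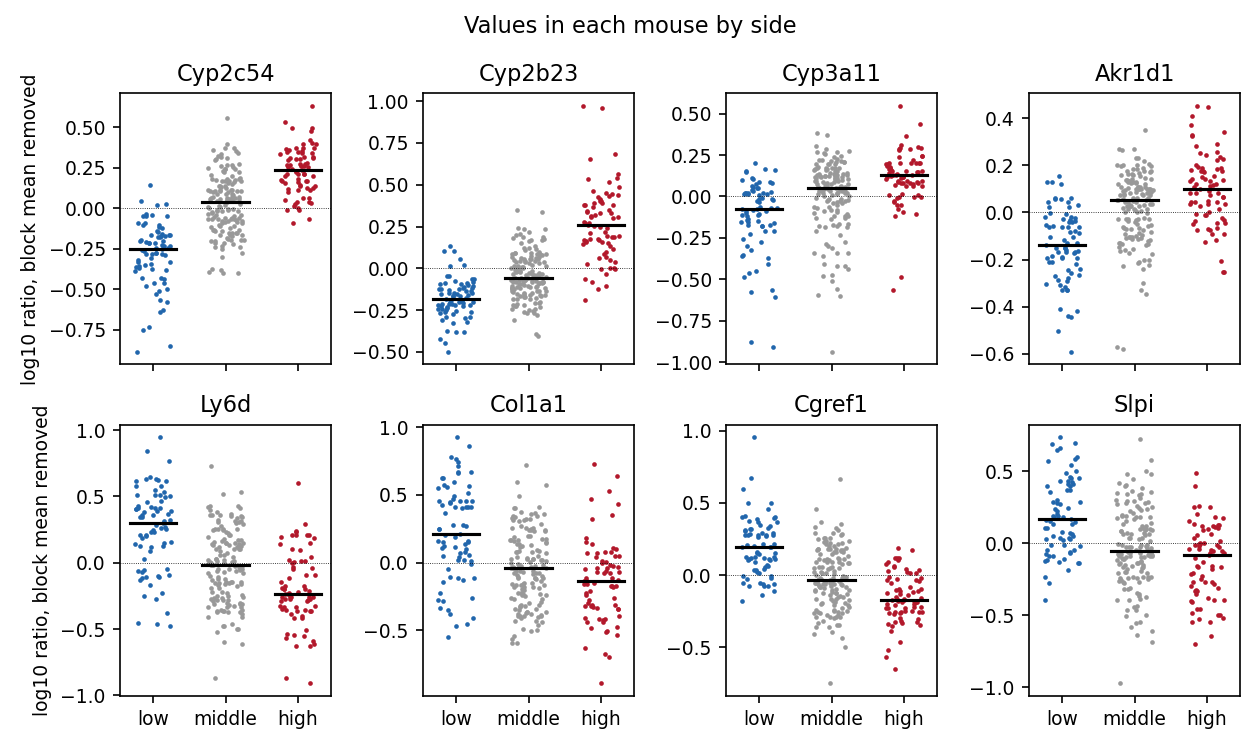
Log10 ratio to the pool with the block mean removed, for each mouse (points) and the median (bar), in the 75 low (blue), 152 middle (grey) and 75 high (red) livers, for 4 genes higher and 4 lower in the high livers. The sides part most in Cyp2c54 and Cyp2b23 and overlap more in Slpi and Col1a1, and the middle livers lie between them.

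Among the higher genes outside detoxification, several answer to hormones or cytokines. Fkbp5, a co-chaperone that glucocorticoids raise, ran from -0.601 to 0.527 with a median of -0.0387 in the low livers and from -0.316 to 0.493 with a median of 0.224 in the high livers. It was 1.78-fold higher (0.252 ± 0.0315, adjusted p = 3.3e-11), and 0.128 in log10 with the mouse number as a covariate. Il1r1, the interleukin 1 receptor, was 1.82-fold higher (adjusted p = 4.32e-09), falling to 0.156 with that covariate. Lpin1, an enzyme of triglyceride synthesis that fasting raises, was 1.79-fold higher (adjusted p = 6.09e-06), but its difference was 0.0285 (adjusted p = 0.707) with the covariate. Saa4, the serum amyloid made without inflammation, was 1.69-fold higher (adjusted p = 3.83e-11). Of 22 acute phase genes 10 were higher and 2 lower, and 3 and 3 with the mouse number as a covariate, the lower ones being Cd14 and Hpx in the first fit. Of 12 glucose genes 5 were higher and 3 lower. All 5, Got1, Ppargc1a, Tat, Pck1 and Slc2a2, lost the call with that covariate.

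Fat synthesis and storage genes fell. Of 15 genes of fatty acid synthesis 10 were lower and 1 higher, with a median difference of -0.0689, and 8 were lower with the mouse number as a covariate. Fasn, the fatty acid synthase, ran from -0.58 to 0.84 with a median of -0.0397 in the low livers and from -0.499 to 0.0386 with a median of -0.248 in the high livers. It was 1.63-fold lower (-0.212 ± 0.0305, adjusted p = 3.87e-09), and 4 of 75 high livers lay above the low median. Elovl6 was 1.47-fold lower and Acacb 1.23-fold (adjusted p = 1.13e-06 and 9.95e-10). Their regulator Srebf1 stood at 0.00369 over both Eif2s3y classes, but at -0.125 ± 0.0411 below -0.8 and 0.106 ± 0.0399 above it. By limma these differences were unlike between the classes (adjusted p = 0.0137). Thrsp was the 1 higher member, with -0.00903 below and 0.344 above the limit, unlike between the classes too (adjusted p = 0.0161). Of 9 fat storage genes 6 were lower and 1 higher, with a median of -0.115. Cidea, a lipid droplet protein of fatty liver, ran from -1.67 to 0.816 with a median of -0.955 in the low livers and from -1.73 to 0.696 with a median of -1.22 in the high livers. It was 2.67-fold lower (adjusted p = 3.48e-05), within ranges that nearly coincide, and reversed to 0.0336 (adjusted p = 0.838) in mice ranked by Cyp2b10 alone. Apoa4 and Fabp4, apolipoprotein and fatty acid carrier, were 1.59- and 1.58-fold lower (adjusted p = 6.64e-10 and 7.25e-08), and Dgat2, which makes triglyceride, was 1.21-fold higher (adjusted p = 1.31e-09).

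Sterol synthesis was lower in part. Of 14 measured genes 6 were lower and none higher, and the others lay between -0.0146 and 0.041 with no call. Sqle, the squalene epoxidase, ran from -0.86 to 0.603 with a median of -0.0921 in the low livers and from -0.836 to 0.47 with a median of -0.42 in the high livers. It was 2.1-fold lower (-0.323 ± 0.0479, adjusted p = 1.01e-08), and 11 of 75 high livers lay above the low median. Fdps and Dhcr7, earlier and later enzymes of the pathway, were 1.46- and 1.45-fold lower (adjusted p = 2.48e-09 and 1.65e-11). Fatty acid oxidation had 4 of 17 higher and 3 lower, close to the background. The lower ones included Fgf21, a fasting hormone of the liver, at 1.27-fold lower (adjusted p = 7.73e-07).

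Most macrophage and stellate cell markers were lower in the high livers, and the other cell types were less even. Whether there were fewer of those cells or less RNA in each cannot be told apart in whole tissue, and the part of cell makeup in the P450 differences was not tested. Of 21 macrophage and Kupffer cell markers 13 were lower and none higher, and 9 were lower with the mouse number as a covariate. Their mean ran from -0.329 to 0.341 in the low livers (median 0.0468) and from -0.303 to 0.185 in the high livers (median -0.0318). Gpnmb, a glycoprotein of lipid-laden macrophages, was 2.3-fold lower (-0.362 ± 0.0605, adjusted p = 2.61e-07), and the lipid-sensing receptor Trem2 stood at -0.2. The resident Kupffer cell genes Clec4f, Timd4, Marco and Vsig4 had no call, at -0.0161, 0.0307, 0.0521 and 0.0428. Tyrobp and C1qa were 1.28- and 1.3-fold lower (adjusted p = 2.55e-05 and 2.67e-05). With the first principal component as a covariate the sign turned, with no call, in Gpnmb (0.0425), Tyrobp (0.0334) and C1qa (0.0248).

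Stellate cell and matrix genes had 9 of 12 lower and none higher, and 8 lower with the mouse number as a covariate. Col1a1, a chain of the main fibrillar collagen, ran from -0.935 to 0.767 with a median of -0.0903 in the low livers and from -1.15 to 0.34 with a median of -0.446 in the high livers. It was 2.31-fold lower (-0.364 ± 0.0537, adjusted p = 8.84e-09), and 7 of 75 high livers lay above the low median. Col6a3 and the growth factor receptor Pdgfrb were 1.44- and 1.42-fold lower, though Col6a3 stood at 0.0200 with no call with the first principal component as a covariate. Lrat, which marks resting stellate cells, stood at -0.00415 with no call. The list's mean had medians of 0.0539 in the low and -0.0219 in the high livers. Bile duct markers had 4 of 6 lower, among them Epcam at 1.22-fold (adjusted p = 2.22e-05) and Muc1 at 1.29-fold, and 2 lower with the mouse number as a covariate, which ended the call of Muc1 (adjusted p = 0.0895). Endothelial markers had 5 of 12 lower and 1 higher, and Stab1, of sinusoidal endothelium, was 1.21-fold lower (adjusted p = 2.61e-08). With that covariate 2 endothelial, 2 neutrophil, 3 lymphocyte and none of the red cell markers were lower. Neutrophil markers had 5 of 11 lower and 3 higher, with S100a9 at 1.47-fold lower. Lymphocyte markers had 6 of 14 lower and 3 higher, with Klrd1, of natural killer cells, at 1.35-fold lower (0.0392 with no call with the first principal component as a covariate) and Cd8b1 at 1.11-fold higher. The 6 exocrine pancreas markers lay between -0.0394 and 0.0447 with no call. Red cell markers had 4 of 8 lower and 2 higher. Car1, the higher one with the largest difference at 1.68-fold (adjusted p = 1.88e-16), went against the globins Hba-a1, Hbb-b1 and Hbb-b2, which stood at -0.0551, -0.0957 and -0.0967 and lost their calls with the mouse number as a covariate.

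Cell division genes fell as a group. Of 17 measured 12 were lower and 1 higher, with a median difference of -0.049, and the counts were the same with the mouse number as a covariate. Birc5, Ccnb2 and Ccna2, of the mitotic spindle and the cyclins, stood at -0.21, -0.19 and -0.163 in log10. Plk1, a mitotic kinase, ran from -0.243 to 0.42 with a median of 0.0461 in the low livers and from -0.31 to 0.159 with a median of -0.115 in the high livers. It was 1.4-fold lower (-0.145 ± 0.0197, adjusted p = 6.72e-10), and 4 of 75 high livers lay above the low median. Interferon-induced genes had 8 of 18 lower and none higher, but 3 lower with the mouse number as a covariate. Cxcl10, a chemokine that draws T cells, was 1.62-fold lower (-0.209 ± 0.0381, adjusted p = 1.99e-06). Immediate early genes had 5 of 15 lower and none higher, led by the matrix signal Ccn1 at 1.39-fold (adjusted p = 8.85e-07), while Fos and Egr1 stood at 0.00985 and 0.0171.

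Clock genes had 10 of 17 higher and 1 lower, and 4 and 1 with the mouse number as a covariate. Usp2, a deubiquitinase under clock control, was 1.58-fold higher (adjusted p = 3.8e-09), falling to 0.0878 in log10 with that covariate. The PAR bZIP factors Hlf and Tef, which are known to drive CAR and detoxification genes through the day, stood at 0.0636 and 0.0184, both called higher (Tef without the covariate only), and Dbp at 0.0143 with no call. Nr1d1, a repressor arm of the clock, was lower at -0.148 and lost the call with the mouse number as a covariate. Heat shock genes had 6 of 11 higher and none lower, led by Dnaja1 at 1.26-fold (adjusted p = 4.83e-11). Genes of the endoplasmic reticulum had 4 of 15 higher and 4 lower, and 2 and 1 with the mouse number as a covariate. The subunits of oxidative phosphorylation had 1 of 11 higher, Ndufs1 at 1.13-fold, which lost the call with that covariate (adjusted p = 0.0958). Those of the cytosolic ribosome had 2 of 10 higher and 2 lower. Fat cell markers had 2 of 6 higher, Car3 at 1.36-fold and Lep at 1.09-fold, and Fabp4 lower. Lep was called lower, at -0.0426 (adjusted p = 0.00816), with the first principal component as a covariate. It stood at -0.0191 in mice ranked by Cyp2b10 alone and at -0.00277 in numbers above 212, both with no call.

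**Figure D4:**
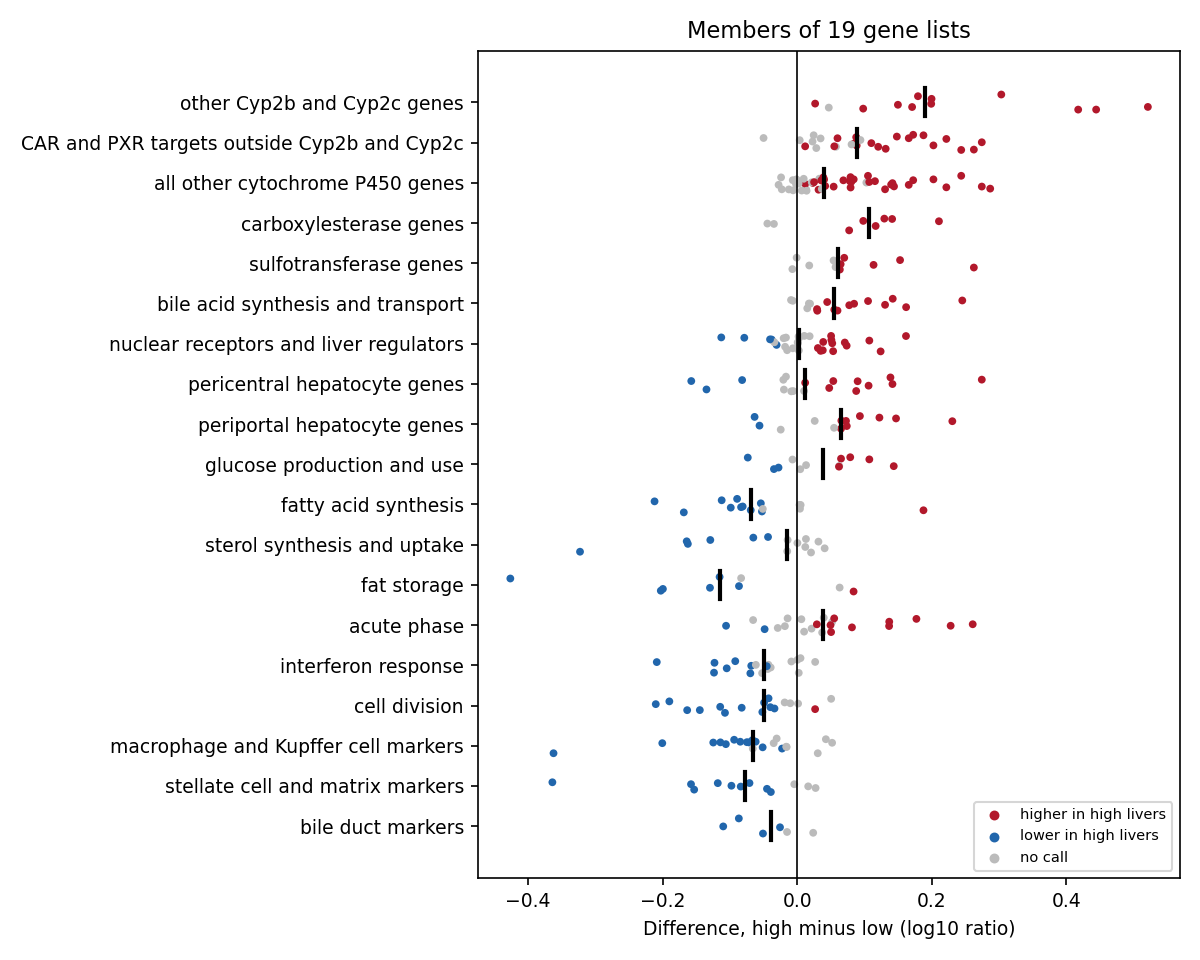
Difference between high and low livers in log10 ratio for each measured member of 19 gene lists, red where higher, blue where lower and grey where not called at an adjusted p of 0.05; the bar is the list's median. The Cyp2b and Cyp2c list has the highest median at 0.19 and fat storage the lowest at -0.115, against 0.0018 over all named genes.

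Some differences depended on whether Eif2s3y was above or below -0.8, the sign of a Y chromosome. The interaction passed for 266 genes (2.46%). Akr1d1 was 0.357 ± 0.0324 higher in log10 in mice above the limit and 0.105 ± 0.03 in those below it (adjusted p of the interaction = 0.000257). Of the P450 genes, Cyp2c38 had 0.389 against 0.196 (adjusted p = 0.000443) and Cyp2b9 0.264 against 0.0732 (adjusted p = 0.0472). The sulfotransferase Sult1b1 had 0.246 against 0.036, and the sterol exporter Abcg5 0.236 against 0.0667 (adjusted p = 7.7e-05 and 0.0108). Sdcbp2 went down by more above the limit, with -0.482 against -0.0471 (adjusted p = 0.00576). In these genes the larger difference was in mice with Eif2s3y above -0.8, and the other 10 Cyp2b and Cyp2c genes measured had no interaction call. Some called genes went the other way, such as Hsd17b11 with 0.0285 above and 0.115 below the limit (adjusted p = 0.0093). The score also spread more widely above the limit, with an SD of 0.993 and 0.802 in its blocks against 0.767 and 0.752 below. The interaction makes no allowance for that. The number range gave 43 interaction calls (0.398%). Fkbp5 was 0.355 higher in numbers up to 212 and 0.111 in those above (adjusted p = 0.0414), and Fdps -0.251 against -0.0448 (adjusted p = 0.0148). Without the 31 widest arrays limma called none of the number range interactions, with 1452 genes at an unadjusted p under 0.05.

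**Figure D5:**
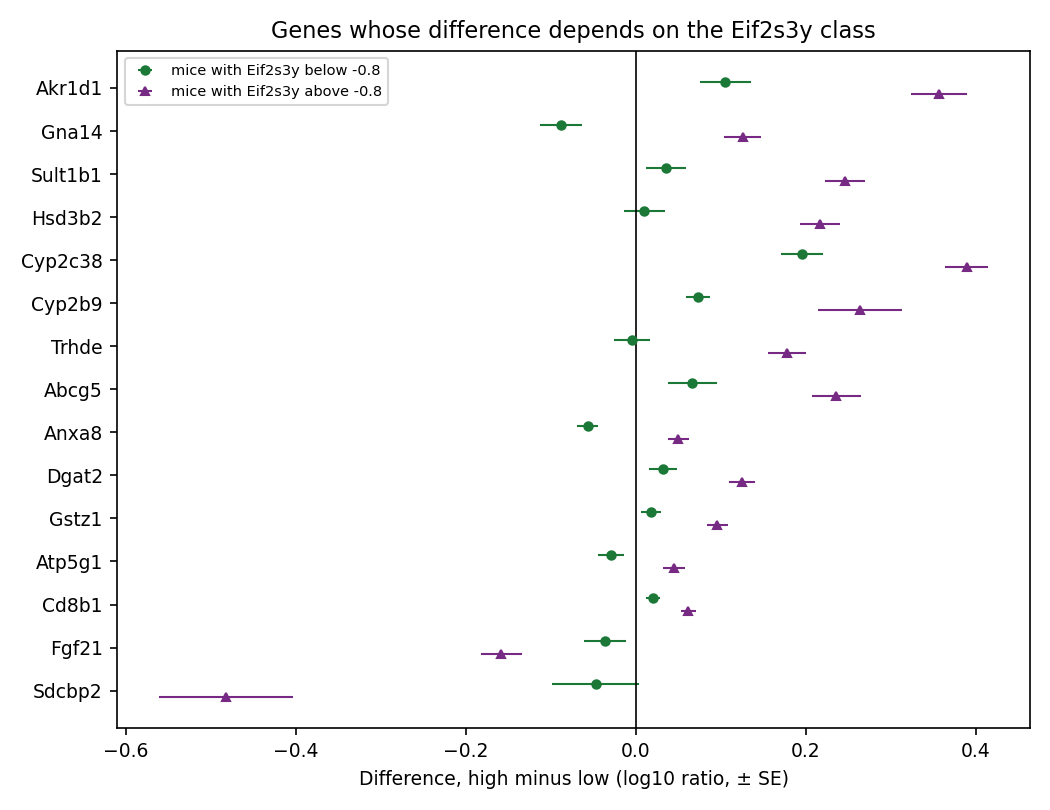
Difference between high and low livers in log10 ratio, ± SE, fitted in mice with Eif2s3y below -0.8 (green circles) and above it (purple triangles), for genes with an interaction at an adjusted p under 0.05 that are named by rule or have 1 of the 5 smallest p-values. Akr1d1 has 0.357 above and 0.105 below the limit, and Gna14 changes sign.

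The genes next to the P450 clusters were counted because an F2 mouse inherits long stretches of a chromosome from 1 strain, so that a variant near Cyp2c or Cyp2b10 would be shared with its neighbours. Of the 60 measured genes nearest the Cyp2c cluster, 30 on each side, 25% were higher and 26.67% lower, beside 26% and 22.2% of all named genes. With the fold of 25% required as well, 9 of these 60 (15%) were called, beside 5.69% of all named genes. Papss2, which makes the sulfate donor of sulfotransferases, and Got1 were the 2 higher, at 0.11 and 0.144, and 7 were lower, among them Acta2, the smooth muscle actin, at -0.118. Of the 60 around Cyp2b10, 7 were P450 genes, and all 7 were higher. Of the other 53, 15.09% were higher and 26.42% lower, and 1.89% passed the fold, which was Numbl alone at -0.124. Over the chromosomes the higher share ran from 23.73% to 31.78%. These neighbours were named after their values were seen, no genotype was used here, and no locus was tested.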

How the data were processed

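The authors deposited 1 table of log ratios, read here as log10 of mouse over pool, for 23562 probes and 302 arrays. The scanner and the normalization of the arrays were not given in the sources used here. Deposited ratios stop at -2 and 2, which in log10 is a round 100-fold, and Eif2s3y was above -0.8 in 52.98% of mice. Neither value fixes the base or the direction, so the reading is an assumption on which every fold and direction here rests. Correlations between arrays went down to -0.518, and 1035 of 45451 pairs lay under -0.3. All arrays have the same dye orientation and the direction was kept. Values were used as deposited. Precision is limited by how many arrays there are.

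Of the probes, 12652 were matched to 1 of 10838 genes through an annotation table of the array and a RefSeq gene table of GRCm38.p6, 48 had several symbols, 9859 were not listed in it and 1003 had an identifier outside the gene table. Probes with values in at least 90% of mice were used (23512), probes of a gene were averaged, and unnamed probes were kept singly. The 21704 features other than the 3 selection genes were fitted with limma 3.58.1 in R 4.3.3 (lmFit, eBayes), high against low with the 4 blocks, two-sided, with the Benjamini-Hochberg adjustment over all features and a threshold of 0.05. A fold is 10 to the power of the difference. Interactions with the Eif2s3y class and the number range, and the slope on the score in the 152 middle mice, scaled by the mean distance of 2.116 between the sides, used the same features. The script was tested on simulated data. Each mouse is labelled as a separate animal.

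Named genes are the 15 with the largest difference in each direction among those called with the same sign in the 4 blocks, all measured Cyp2b and Cyp2c genes, all called regulators with Nr1i3, and the 3 members of smallest adjusted p of each other list. Others are given from their lists by role, or were chosen after their values were seen. The mice, members and lists were chosen with earlier results of these data known. Alternatives covered scaling, limits, filter, mice per side, ranking genes, blocks, wide arrays, the first principal component, robust regression and, added after the data were seen, the mouse number. Promoter windows from RefSeq were found for 8587 of 10812 genes. Proteins were not compared.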

Additional observations from a re-analysis of the deposited data

Results flagged for a closer look

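The difference between high and low livers was tested between mice with Eif2s3y below and above -0.8, and these genes passed. Values are the difference above minus that below the limit, in log10. The enzymes Akr1d1 (0.252 ± 0.0455), Sult1b1 (0.21 ± 0.0342), Cyp2c38 (0.194 ± 0.0365) and Cyp2b9 (0.191 ± 0.0573), the steroid dehydrogenase Hsd3b2 (0.207 ± 0.0345) and the sterol exporter Abcg5 (0.169 ± 0.0418) had the larger rise above the limit. Hsd3b2 had 0.00987 below and 0.217 above it. The G protein gene Gna14 (0.214 ± 0.0326) went from -0.0881 below to 0.126 above the limit, and the annexin Anxa8 (0.107 ± 0.018) from -0.0566 to 0.0503. The peptidase Trhde had 0.182 ± 0.0312. Smaller values were found for Dgat2 (0.0931), Gstz1 (0.0781), Atp5g1 (0.0746) and Cd8b1 (0.0411). Sdcbp2 (-0.435 ± 0.101) and Fgf21 (-0.122 ± 0.0353) had the larger fall above the limit. Gna14, Anxa8, Hsd3b2 and Trhde were chosen after their values were seen.

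Between numbers up to 212 and above, the difference above minus that up to 212 was -0.244 ± 0.0607 for Fkbp5, 0.207 ± 0.044 for Fdps and 0.155 ± 0.0379 for Plk1. It was 0.14 for 4930579G24Rik, -0.0865 for Ktn1, 0.0908 for Mvd and 0.0616 for Tonsl, 4 genes chosen after their values were seen. None of these calls was made without the 31 widest arrays.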

How the results depend on the processing

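The counts were within 1.5 times of 2810 genes higher and 2397 lower with arrays centred, scaled to one SD or quantile normalized, without values at the limits, without the filter on missing values, with 50 or 100 mice per side, with the score as a covariate in all 302 mice, ranked by Cyp2c29 and Cyp2c50, with the score scaled within blocks, without blocks, without the 31 widest arrays, with array SD as a covariate, in robust regression and with each probe on its own. They were 1527 and 1442 in mice ranked by Cyp2b10 alone, 1536 and 1323 in mice with Eif2s3y below -0.8, 553 and 322 in numbers above 212, 1003 and 929 with the first principal component and 1839 and 1493 with the mouse number as a covariate, and 13 and 5 in the middle mice. The cause of these shifts was not tested. Of the 161 genes named by rule, 87 lost the call but kept the sign in numbers above 212, and 140 in the middle mice. With Eif2s3y below -0.8 it was 44, in mice ranked by Cyp2b10 alone 38, and with the mouse number as a covariate 26. With the first principal component as a covariate it was 53. Genes that changed sign are given below and come on top of these. With arrays centred on their median 46.88% of the calls were higher, beside 53.97%. The Eif2s3y interaction had 266 calls, 414 with scaled arrays and 453 with the score in all mice. The number range interaction had 43, and 224, 569, 98 with 50 mice per side, and 0 without the widest arrays by limma (1452 at an unadjusted p under 0.05). With the first principal component as a covariate the log10 difference had the other sign for Cidea 0.0239, Gpnmb 0.0425, Ubd 0.104, Cyp2b19 -0.0122, Esr1 -0.0265, Nfe2l2 0.00957, Stat5a 0.0297, Cbr3 0.0112, Slco1a1 -0.0514, Hsd3b5 -0.092, Cyp7b1 -0.118, Atp5g1 -0.00148, Rpl7 -0.0112, Tyrobp 0.0334, C1qa 0.0248, Elane -0.00693, Klrd1 0.0392, Ccl5 0.0603, Col6a3 0.0200, Cftr 0.00443, Cel -0.00248, Lep -0.0426 and Aldh18a1 0.0107. In mice ranked by Cyp2b10 alone the log10 difference had the other sign for Cidea 0.0336, Cyp2b19 -0.00565, Cyp2c23 -0.00235, Esr1 -0.00779, Slco1a1 -0.0115, Hsd3b5 -0.0729, Cyp7b1 -0.0847, Elane -0.000414, Cftr 0.022 and Lep -0.0191. In mice with Eif2s3y below -0.8 the log10 difference had the other sign for Cyp2c39 -0.0479, Cox5a -0.0152 and Atp5g1 -0.0292. In numbers above 212 the log10 difference had the other sign for Cyp7b1 -0.0127, Rpl7 -0.0021, Cpb1 0.0231 and Lep -0.00277. In numbers up to 212 the log10 difference had the other sign for Atp5g1 -0.00778. In the middle mice the log10 difference had the other sign for Cyp2c39 -0.0555, Foxa2 -0.0102, Hsp90aa1 -0.0648, Hsd3b5 -0.00522, Ier3 0.0696, Cox5a -0.0382, Mcm2 0.00189, Rhd -0.0206 and Sult2b1 -0.0117. Of these, Cyp7b1, Lep and Esr1 with the first principal component as a covariate had an adjusted p under 0.05. No paired analysis was possible because the labels give 1 group and each mouse is its own sample.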

Other observations

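Some genes best known from other tissues followed the P450 genes closely. Actl6b, a subunit of a chromatin complex of neurons, was 1.37-fold higher in the high livers (0.136 ± 0.0073, adjusted p = 1.26e-36) and had the smallest adjusted p of all named genes. It correlated with Cyp2c29 at r = 0.91 over 302 mice with blocks removed, above Cyp2c38 (r = 0.897), and at r = 0.73 within the middle mice. Csta1, a cystatin, and Olig2, a factor of oligodendrocytes, were 1.32- and 1.46-fold higher (adjusted p = 7.99e-18 and 6.01e-19) and correlated with Cyp2c50 at r = 0.765 and 0.727. These correlations share the array and the pool. What these probes bind was not tested.

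With Cyp2c50, the genes most alike after Cyp2c54 and Cyp2c37 were Csta1, Olig2, Gpld1 (r = 0.719) and Amy1 (r = 0.682). Cyp2b10 went with Cyp2b23 (r = 0.961), then Cyp2c29 (r = 0.621), Actl6b (r = 0.611), Cyp2c38 (r = 0.561) and Sult1d1 (r = 0.532). In the 152 middle mice, which span a narrow range of a score that holds Cyp2b10 and Cyp2c29, these correlations were 0.895, -0.0755, -0.119, 0.0221 and 0.235. Cyp2b10 and Cyp2c54 correlated at r = 0.393.

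In the middle mice the kinase Hunk and the interferon gamma receptor chain Ifngr2 fell with the score (-0.255 and -0.178, adjusted p = 0.0128 and 0.00803), and Mafg, a partner of NRF2, rose (0.208, adjusted p = 0.0182). All 3 were chosen after their values were seen.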
